A study of Mus musculus with 8 samples.

Results

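The genes described here are 44 genes of the cell cycle and of DNA replication, chosen by name, and all 44 were found among the 14883 genes of the deposited single-cell table. They comprised 14 S phase genes (replication factors and nucleotide synthesis enzymes), 26 G2/M genes (cyclins, mitotic kinases, kinetochore and spindle proteins) and 4 genes of chromatin and microtubule proteins that are abundant in growing cells (Hmgb2, H2afz, Hmgn2 and Stmn1). Cells came from the fourth and the fifth mammary gland of mice of mixed strain at 5 weeks of age. Ducts and terminal end buds (the bulbs at which ducts elongate) were micro-dissected and dissociated, and live cells were sorted into plates. The 8 libraries lay on 2 plates, with 4 libraries of 96 wells on each, and the method was SORT-seq, a plate-based relative of CEL-seq2 in which robots handle the wells and transcripts are counted per well. The labels name no treatment, do not say which library held ducts and which held end buds, and do not tie libraries to animals. The spread behind all p-values is that among libraries and may be technical only.

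A dividing cell copies its DNA in S phase and separates the copies in mitosis, which follows the G2 gap. Genes of DNA replication are transcribed mainly around the entry into S phase, in large part under E2F transcription factors. Many mitotic genes instead peak in G2 and mitosis and are held down in resting cells through a promoter element named CHR. Many of their promoters also carry an element named the CCAAT box. In the mammary gland at puberty, cells of the terminal end buds are known to proliferate as the ducts extend into the fat pad.

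Promoters were matched in RefSeq (build GRCm38.p6) for 37 of the 44 genes, and the 250 bases before each promoter start were searched on both strands. A gene counted when any of its promoters held the match. For Top2a, Mki67 and Mcm5 the searched bases ran past the RefSeq start of the gene, and the stretches printed below are cut there. The CHR was searched as TTTGAA or TTCGAA, the CCAAT box as CCAAT, and the E2F element as TTTCCCGC, TTTGGCGC, TTTCGCGC or TTTGCCGC. The CCAAT box stood in 19 of 22 G2/M promoters and in 9 of 12 S phase promoters, beside 37.5% of the 27025 genes with a promoter in the table. A CHR match stood in 9 of 22 G2/M and 2 of 12 S phase promoters, beside 19.6% of all genes. An E2F match stood in 3 of 12 S phase and 1 of 22 G2/M promoters, beside 2.16% of all genes. Such matches describe letters and not binding. Stretches before the start of 6 genes are printed 5′ to 3′ to show these elements, with each match in capitals. For Top2a, Ccnb2, Mki67 and Mcm6, in this order, they lie at chr11:99024200-99024339, chr9:70421555-70421704, chr7:135716451-135716529 and chr1:128359706-128359855 on the minus strand, and for Kif11 and Mcm5 at chr19:37376232-37376381 and chr8:75109359-75109467 on the plus strand, and end where the gene begins in RefSeq, so that they hold no exon of it.
Top2a: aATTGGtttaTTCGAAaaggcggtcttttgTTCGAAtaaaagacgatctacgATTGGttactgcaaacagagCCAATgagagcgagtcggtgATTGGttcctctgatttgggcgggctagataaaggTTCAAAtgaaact
Mki67: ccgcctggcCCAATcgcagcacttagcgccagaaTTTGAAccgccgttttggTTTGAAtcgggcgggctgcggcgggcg
Ccnb2: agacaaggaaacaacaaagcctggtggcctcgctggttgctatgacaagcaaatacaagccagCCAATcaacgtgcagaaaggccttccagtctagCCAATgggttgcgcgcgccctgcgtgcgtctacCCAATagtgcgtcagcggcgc
Kif11: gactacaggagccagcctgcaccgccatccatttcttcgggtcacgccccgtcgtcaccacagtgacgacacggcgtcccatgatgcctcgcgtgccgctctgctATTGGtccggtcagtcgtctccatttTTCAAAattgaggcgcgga
Mcm5: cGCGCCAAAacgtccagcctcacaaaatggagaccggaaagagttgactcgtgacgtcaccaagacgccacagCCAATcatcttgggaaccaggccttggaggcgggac
Mcm6: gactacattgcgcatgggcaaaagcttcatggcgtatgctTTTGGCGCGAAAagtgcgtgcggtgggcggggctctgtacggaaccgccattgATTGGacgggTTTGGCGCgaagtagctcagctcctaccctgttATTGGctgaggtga
In these stretches the 4 G2/M genes Top2a, Mki67, Ccnb2 and Kif11 carried CCAAT boxes, read as ATTGG on the other strand, and all but Ccnb2 also carried CHR matches. Ccnb2 is among the G2/M genes counted above with a CHR match, which lay outside its printed stretch. The replication genes Mcm5 and Mcm6 carried E2F matches together with CCAAT boxes, and a pair of the E2F matches in Mcm6 overlap.

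Wells were called cells when they held at least 1500 transcripts and 500 genes, which kept 114 of 768 wells. Libraries held 101158 to 598625 transcripts over all wells and 7 to 31 kept cells, with median depths of 4872 to 21255 transcripts per cell. A cell was basal (the contractile outer layer) when Acta2, Tagln and Myl9 together exceeded Krt8, Krt18 and Krt19, and luminal (the inner layer) in the reverse case. Luminal cells were hormone-sensing when Prlr exceeded Trf and secretory otherwise. None of these 8 genes is among the 44. The rule gave 66 basal, 14 hormone-sensing and 28 secretory cells, and 6 cells in which both sums were 0. Their median depths were 13450.5, 17924, 7102 and 3705 transcripts. Longer marker lists went with the names: the basal list made up 122.8 of 10000 transcripts in basal cells against 0.978 in hormone-sensing and 1.01 in secretory cells, the hormone-sensing list 83.5 in hormone-sensing against 3.40 in secretory cells, and the secretory list 2.93 against 248.5. Libraries 2 and 4 of both plates held 64 basal cells, no luminal cell and 4 cells of neither class. Libraries 1 and 3 held all 42 luminal cells beside 2 basal cells and 2 of neither class. Class and library therefore cannot be told apart in basal against luminal comparisons. In 15 cells the markers of another cell type (adipocytes, fibroblasts, macrophages, lymphocytes, red blood cells or nerve) outnumbered the epithelial ones. These were 8 basal cells, 1 secretory cell and all 6 cells of neither class, and 9 of them were among the 12 cells of plate 1 library 2. All 8 libraries use the same 96 well barcodes, as the plate format sets.

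G2/M transcripts were gathered in few cells. Most G2/M genes were found in a small share of cells: the 26 genes had at least 1 transcript in 2 to 78 of 114 cells, with a median of 14 cells. S phase genes were found in 16 to 82 cells, with a median of 31, and the 4 chromatin and growth genes in 56 to 91 cells. Pcna, the sliding clamp of DNA polymerase, was the most widespread S phase gene, at 461 transcripts in 82 cells. Nusap1, a spindle protein, was the rarest member, at 5 transcripts in 2 cells. Cenpf, a kinetochore protein, and Kif11, a spindle motor, stood apart from the other G2/M genes, with transcripts in 78 and 77 cells. The next G2/M gene in this order was Ube2c, of the mitotic ubiquitin machinery, in 44 cells. Of the 32 cells with no transcript of the other 24 G2/M genes, 23 held Cenpf or Kif11. The highest Cenpf count, 32 transcripts, was in a cell of neither class in plate 1 library 1 in which macrophage markers led. Sums over the G2/M genes are therefore also given without Cenpf and Kif11, a choice made after their spread was seen.

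**Figure D1:**
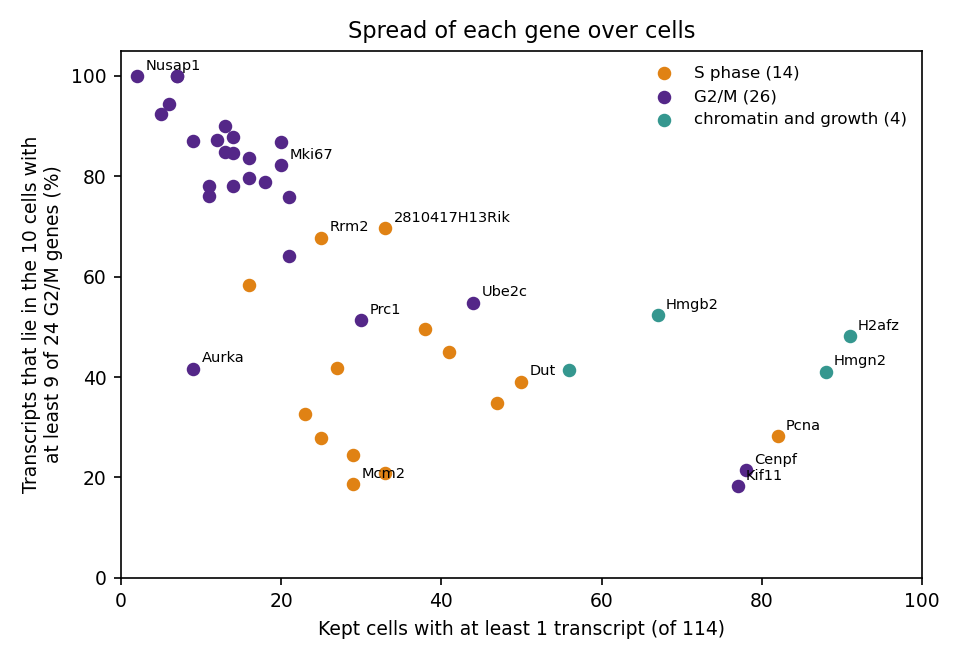
Each point is 1 of the 44 genes; the x axis gives the number of kept cells (of 114) with at least 1 transcript, and the y axis the percent of the gene's transcripts that lie in the 10 cells with at least 9 of the 24 G2/M genes, the cells by which this axis was defined. Most G2/M genes (purple) sit at upper left, S phase genes (orange) lower, and Cenpf and Kif11 at lower right in 78 and 77 cells, near Pcna in 82.

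In 10 of 114 cells (8.77%) at least 9 of the 24 G2/M genes were found, and the next cell had 7. This limit was set after the counts were seen and serves as a description. The 10 cells held 918 of the 1190 transcripts of the 24 genes (77.1%), beside 37.6% of S phase, 45.5% of chromatin and growth and 17.1% of all transcripts. The first share is in part set by the choice of cells, which used these 24 genes and not the others. The 10 cells were deep, with a median of 30558.5 transcripts. By class they were 8 basal cells, 2 hormone-sensing cells and 0 of 28 secretory cells, which allows a share of up to 10.7% for the secretory class by counting error alone.

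The cells with the most mitotic transcripts were of different classes. A hormone-sensing cell of plate 2 library 3 held 234 transcripts of the 26 G2/M genes and 27 of the S phase genes among 23134 in all, and 23 of the 24 genes were present. Its luminal identity showed in 54 Prlr and 52 Krt8 transcripts and 0 of Acta2, and it held 31 transcripts of Mki67 (the Ki-67 proliferation antigen) and 32 of Ube2c. A basal cell of plate 1 library 2 held 222 G2/M and 96 S phase transcripts, again with 23 of the 24 genes, among 29724. It held 23 transcripts of Top2a, the topoisomerase that untangles sister chromosomes, and 21 of cyclin B1 (Ccnb1), with 24 of Acta2 and 0 of Krt5. This cell was in the library where other cell types' markers led in 9 of 12 cells, although they did not lead in this cell. In plate 2 library 2, a basal cell held more S phase than G2/M transcripts, 249 against 120, with all 14 S phase genes present, 56 transcripts of Pcna and 38 of Rrm2, a subunit of ribonucleotide reductase. The shallowest of the 10, a basal cell of plate 2 library 1 with 2404 transcripts, held 10 S phase and 11 G2/M transcripts and only 4 of Acta2. Among secretory cells the highest S phase count was 103, in a cell of plate 2 library 3 with 21 G2/M transcripts and 7 of the 24 genes among 39510 transcripts.

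More cells held at least 9 S phase genes than held at least 9 G2/M genes, but the 2 counts are not alike. At least 9 of the 14 S phase genes were found in 19 cells, of which 14 were basal, 2 hormone-sensing and 3 secretory. Of these 19 cells, 13 had fewer than 9 of the 24 G2/M genes and 6 had fewer than 4. The limits are 9 of 14 against 9 of 24 genes, and a median S phase gene was found in 31 cells against 13.5. Depth was not matched, and its median was 13450.5 transcripts in basal, 17924 in hormone-sensing and 7102 in secretory cells. Across cells, S phase and G2/M levels (per 10000, without Cenpf and Kif11) had a Spearman rho of 0.29 in 66 basal, 0.22 in 14 hormone-sensing and 0.23 in 28 secretory cells. With all 26 G2/M genes it was 0.18, 0.16 and -0.06. Cells of a library share its depth and handling, and these values are a description.

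**Figure D2:**
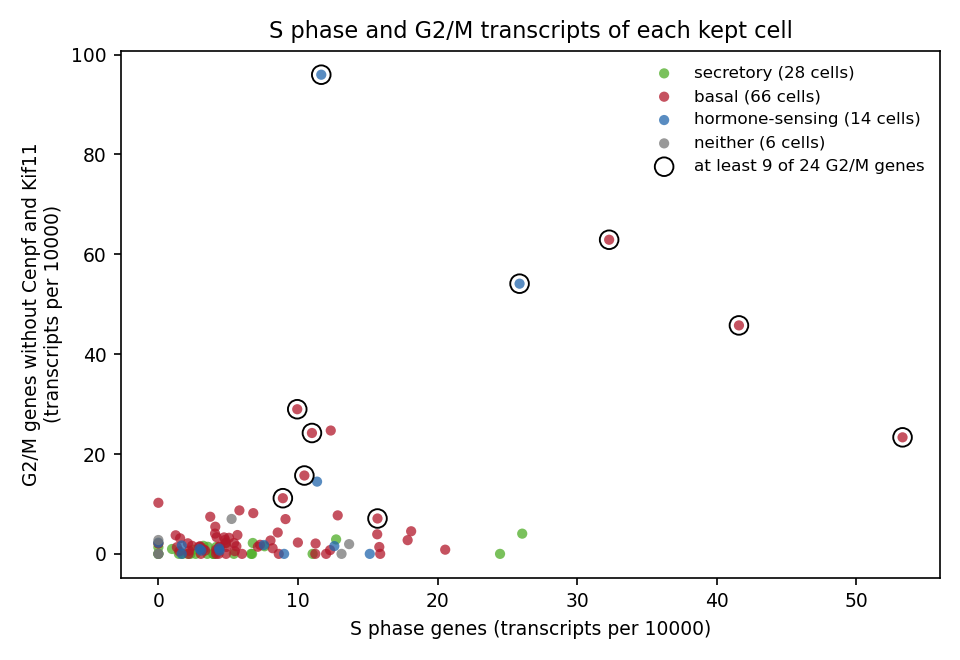
Each point is 1 kept cell, coloured by class; the x axis gives transcripts of the 14 S phase genes and the y axis those of the 24 G2/M genes, both per 10000 transcripts of the cell. Ringed cells are the 10 with at least 9 of the 24 G2/M genes, 8 basal and 2 hormone-sensing, and most other cells lie near the origin.

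The share of cycling cells was taken at matched depth. From each cell 1500 transcripts were drawn, and a cell counted as cycling with at least 3 S phase and G2/M transcripts among them. That held for 26 of 66 basal cells (39.4%, exact binomial 95% interval 27.6 to 52.2), 4 of 14 hormone-sensing cells (28.6%, 8.39 to 58.1) and 5 of 28 secretory cells (17.9%, 6.06 to 36.9). Luminal cells together stood at 9 of 42 (21.4%, 10.3 to 36.8). These intervals overlap, and cover counting error only. Without drawing, the same limit took in 93.9% of basal, 85.7% of hormone-sensing and 71.4% of secretory cells. Of the 6 cells of neither class, in all of which other types' markers led, 4 passed. The word cycling stands for this limit alone. Wells under 500 transcripts, taken as background, held S phase and G2/M transcripts at 17.7 of 10000, close to the 18.8 in kept cells. By library this background ran from 2.32 in plate 2 library 1 to 41.6 in plate 2 library 2. The limit of 3 among 1500 lies near the rate over all these wells, so it cannot separate dividing cells from such background.

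The limit cuts through a range of counts. The mean drawn count was 2.88 in basal, 3.21 in hormone-sensing and 1.57 in secretory cells. Exactly 2 transcripts were drawn in 17 basal, 1 hormone-sensing and 5 secretory cells, and exactly 3 in 10, 1 and 2 cells in the same order. At a limit of 5 transcripts the shares were 19.7%, 21.4% and 3.57%, so the order of basal and hormone-sensing cells turned. Without Cenpf and Kif11 they were 25.8%, 21.4% and 7.14%. The secretory class had the lowest share in each of these 3 counts, but at a limit of 2 transcripts hormone-sensing and secretory cells stood level at 35.7%, with basal cells at 65.2%.

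**Figure D3:**
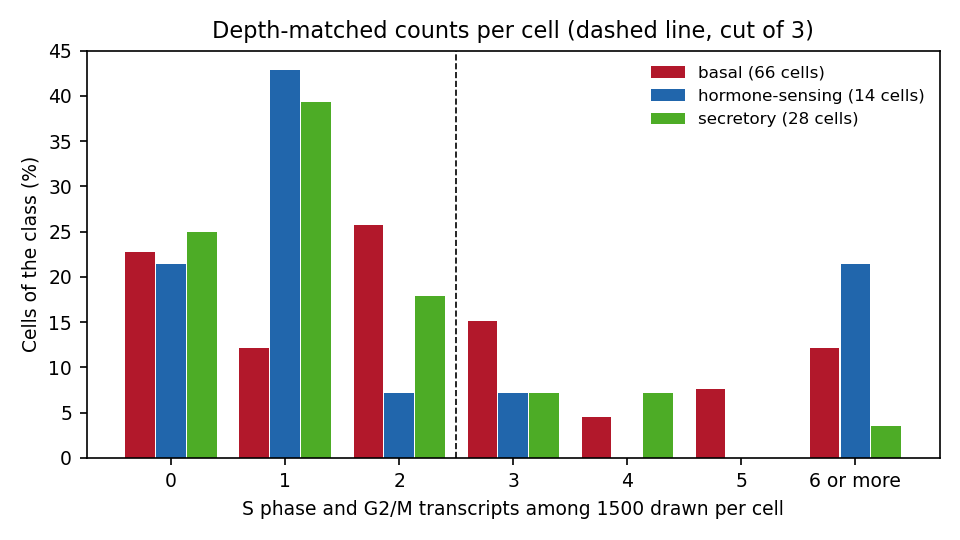
Bars give the percent of cells of each class (y axis) with a given number of S phase and G2/M transcripts among 1500 drawn (x axis), and the dashed line marks the limit of 3. Cells with 6 or more were 8 basal, 3 hormone-sensing and 1 secretory, and 15 basal, 3 hormone-sensing and 7 secretory cells had 0.

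Libraries of 1 class differed as widely as the classes did. In basal cells the cycling share was 50% and 0% in plate 1 libraries 2 and 4, and 38.7% and 50% in plate 2 libraries 2 and 4. In luminal cells it was 25% and 8.33% in plate 1 libraries 1 and 3, and 10% and 41.7% in plate 2 libraries 1 and 3. The means were 34.7% ± 23.7 (SD, n = 4) and 21.3% ± 15.5 (SD, n = 4), and the libraries overlapped. These shares rest on 1 random draw per cell, and the share expected over all draws moved single libraries by over 1.5 times. Over all draws the basal libraries stood at 51.6% and 16.5% on plate 1 and 33.3% and 35.4% on plate 2, and the luminal ones at 25.95% and 9.01% on plate 1 and 22.4% and 27.99% on plate 2. In those values the libraries overlapped on plate 1 and did not overlap on plate 2, whereas in the single draw they overlapped on both. Without Cenpf and Kif11 the single draw gave basal libraries 12.5% and 0% on plate 1 and 32.3% and 27.8% on plate 2. The luminal ones then stood at 12.5% and 0% on plate 1 and 10% and 25% on plate 2. With cells led by other types' markers left out, plate 1 library 2 kept 3 basal cells, of which 1 passed. Plate 1 library 1 then kept 7 luminal cells, of which 1 passed. In the 3 libraries with at least 3 cells of both luminal classes, hormone-sensing minus secretory was -11.1 points in plate 1 library 3, 14.3 in plate 2 library 1 and 77.8 in plate 2 library 3, a mean of 26.98 ± 45.8 (SD, n = 3). All 3 hormone-sensing cells of the last library passed the limit, and none of the 3 in plate 1 library 3 did. Over all draws the hormone-sensing share was above the secretory one in each of these libraries, at 21.25% against 4.93%, 26.4% against 13.2% and 64.3% against 15.9%, so the negative sign was that of the single draw. Wells under 500 transcripts, which serve as the background, held 147 S phase and G2/M transcripts over 579 wells, 0.254 per well, against a median of 11 per kept cell. Their share of all transcripts was nevertheless 17.7 per 10000 (Poisson 95% interval 14.9 to 20.8), close to the 18.8 in kept cells. The part of such free or residual RNA in the shares was not tested.

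S phase and G2/M genes differed in balance between libraries more than between classes. Over all cells of a class, S phase genes made up 10.5 of 10000 transcripts in basal, 7.44 in hormone-sensing and 7.78 in secretory cells. The 26 G2/M genes made up 9.88, 11.3 and 4.21, and without Cenpf and Kif11 7.35, 9.27 and 1.55. The secretory class held the lowest G2/M level, on 125 transcripts against 383 in the hormone-sensing class. Of those 383 transcripts, 234 were in the single cell of plate 2 library 3 described above. The log2 ratio of S phase to G2/M transcripts was -1.21 and 0.69 in basal cells of plate 1 libraries 2 and 4, and 0.49 and -0.05 in those of plate 2. It was 0.55 and 1.17 in luminal cells of plate 1 libraries 1 and 3, and 0.17 and -0.79 in those of plate 2. The means were -0.02 ± 0.85 (SD, n = 4) and 0.28 ± 0.82 (SD, n = 4), with overlapping libraries. The difference of -0.30 turned to 0.10 without plate 1 library 2, and to 0.52 on plate 2 alone. Among cells counted as cycling, S phase transcripts outnumbered G2/M ones in 9 of 26 basal, 1 of 4 hormone-sensing and 3 of 5 secretory cells.

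Basal and luminal cells were then compared gene by gene, on transcripts summed over the cells of each library (4 basal and 4 luminal sums of 7 to 31 cells). No member passed the test. With edgeR's quasi-likelihood test, 1225 of 10784 genes tested (11.4%) had a Benjamini-Hochberg adjusted p under 0.05, and 0 of the 43 members that reached 10 transcripts did. Nusap1 was below that filter. At an unadjusted p under 0.05 there were 10 members, all higher in basal cells, beside 23.2% of all genes in either direction and 12.9% higher. DESeq2 called 2, Hmgn2 and Top2a. Fitted changes were above 0 for 33 of 43 members, with a median log2 change of 0.69 beside 0.03 over all genes. Without plate 1 library 2 that median was 0.10, over 41 members tested, and edgeR called Hmgn2 and Stmn1 as higher in basal cells.

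The 4 chromatin and growth genes together lay higher in basal than in luminal libraries. Their sum was 19.0 and 9.95 of 10000 in basal cells of plate 1 libraries 2 and 4, and 19.0 and 17.9 in those of plate 2. In luminal cells it was 9.80 and 7.66 in plate 1 libraries 1 and 3, and 8.91 and 9.61 in those of plate 2. The means were 16.5 ± 4.37 and 8.996 ± 0.971 (SD, n = 4 each), and the groups did not overlap, although the lowest basal library lay close to the highest luminal one. Hmgn2, a nucleosome-binding protein, was the only 1 of 44 members whose single libraries did not overlap. The share of all genes without overlap is not given here, so this count does not set the members apart. Of all genes tested, 11.4% passed the edgeR test between the layers. Hmgn2 stood at 5.71, 5.12, 6.10 and 5.91 of 10000 in the basal sums and at 4.26, 3.39, 2.40 and 2.60 in the luminal sums, in the order used above. Its log2 change was 0.85 ± 0.30 (SE), with an edgeR adjusted p of 0.0747. Leaving out plate 1 library 1 or library 2 brought it under the threshold, at 0.0420 and 0.0432.

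The other members of this group followed the same order with more overlap. H2afz, a histone variant, stood at 8.14, 2.61, 8.04 and 7.16 of 10000 in basal sums and at 3.66, 2.68, 4.67 and 4.62 in luminal sums, so that plate 1 library 4 fell below all luminal libraries. Hmgb2, a DNA-bending protein, stood at 3.85, 0.77, 2.56 and 2.19 in basal and 0.20, 0.93, 1.33 and 1.35 in luminal sums. Stmn1, which destabilises microtubules, stood at 1.28, 1.45, 2.27 and 2.67 in basal and 1.68, 0.66, 0.51 and 1.04 in luminal sums. Their edgeR log2 changes were 0.73 ± 0.36 (adjusted p 0.229), 1.21 ± 0.47 (0.116) and 1.10 ± 0.42 (0.107) in the same order.

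**Figure D4:**
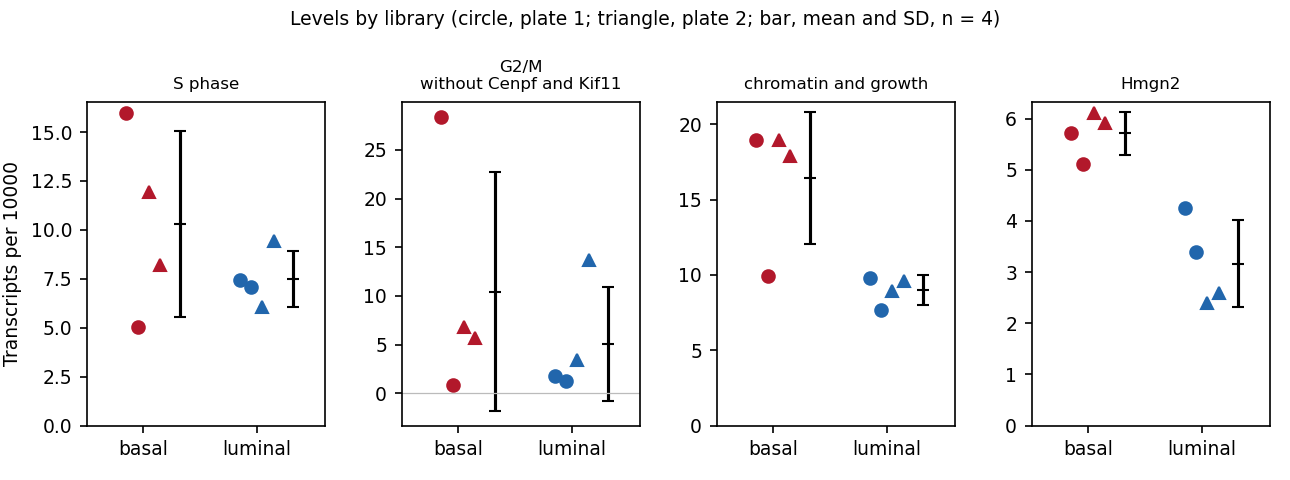
Points give transcripts per 10000 (y axes, a scale of its own in each panel) in each basal (red) and luminal (blue) library sum, circles for plate 1 and triangles for plate 2, with bars for mean and SD (n = 4). Basal libraries lie above luminal ones for the chromatin and growth genes and for Hmgn2, and the groups overlap for S phase and G2/M genes, where plate 1 library 2 is the highest basal point.

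Among S phase genes, levels followed no common order between the layers. The group's sum was 15.99, 5.02, 11.96 and 8.21 of 10000 in basal and 7.43, 7.06, 6.06 and 9.46 in luminal libraries, means of 10.3 ± 4.74 and 7.50 ± 1.43 (SD, n = 4 each). Of the 14 genes, 11 had a change above 0, and the median was 0.32. Pcna stood at 5.42, 1.93, 2.98 and 1.85 of 10000 in basal and 1.98, 2.24, 2.02 and 2.86 in luminal sums. Its log2 change of 0.33 ± 0.35 (edgeR adjusted p 0.670) was no larger than its error. Dut, which clears dUTP from the nucleotide pool, stood at 1.14, 0.19, 1.19 and 0.91 in basal and 0, 0.16, 0.38 and 0.47 in luminal sums, a change of 1.69 ± 0.62 (adjusted p 0.0891). 2810417H13Rik, now named Pclaf, encodes a partner of Pcna. Its values were 1.86, 0.19, 1.18 and 0.94 in basal and 0.20, 0.05, 0.57 and 0.57 in luminal sums, a change of 1.496 ± 0.605 (adjusted p 0.129).

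Subunits of the replicative helicase and of ribonucleotide reductase also did not pass the test. Mcm6, a subunit of the replicative helicase, stood at 0.43, 0, 0.85 and 0.48 of 10000 in basal and 1.68, 0.93, 0.57 and 0.73 in luminal sums, a change of -0.85 ± 0.56 (edgeR adjusted p 0.428). Mcm2, of the same ring, had -0.91 ± 0.57 and Mcm7 had 0.96 ± 0.52, with adjusted p of 0.384 and 0.303. Rrm1, the large subunit of ribonucleotide reductase, had 0.30 ± 0.52, with levels of 1.28, 0.39, 0.68 and 0.57 in basal and 0.20, 0.38, 0.38 and 1.14 in luminal sums. Rrm2, its partner, had 1.94 ± 0.88 (adjusted p 0.188), and 38 of its 90 transcripts in all cells were in 1 basal cell. The remaining S phase genes, Mcm3, Mcm4, Mcm5, Tyms, Tk1 and Gins2, had changes from -0.42 (Tk1) to 0.98 (Tyms).

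For G2/M genes, plate 1 library 2 and plate 2 library 3 set the means. The 26 genes summed to 37.0, 3.09, 8.54 and 8.53 of 10000 in basal and 5.05, 3.12, 5.37 and 16.4 in luminal libraries, means of 14.3 ± 15.3 and 7.48 ± 6.01 (SD, n = 4 each). Without Cenpf and Kif11 the sums were 28.4, 0.87, 6.80 and 5.71 in basal and 1.78, 1.26, 3.47 and 13.7 in luminal libraries. Both high libraries hold 1 of the cells rich in mitotic transcripts described above, 1 of 8 basal cells in plate 1 library 2 and 1 of 12 luminal cells in plate 2 library 3. Changes were above 0 for 18 of 25 G2/M genes, with a median of 0.20.

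Single G2/M genes followed those libraries. Mki67 stood at 0.86, 0, 0.97 and 0.71 of 10000 in basal and 0.30, 0.05, 0.19 and 1.77 in luminal sums, a log2 change of 0.18 ± 0.76 (edgeR adjusted p 0.936). Ube2c stood at 3.43, 0.48, 0.43 and 0.63 in basal and 0.69, 0.27, 0.25 and 2.13 in luminal sums, a change of 0.20 ± 0.69. Cenpa, the centromeric histone, stood at 1.71, 0, 0.75 and 0.88 in basal and 0, 0, 0.69 and 1.09 in luminal sums, a change of 0.74 ± 0.82. In these genes the spread within a class exceeded the difference between classes. Cenpf stood at 6.14, 1.45, 0.97 and 1.79 in basal and 1.49, 1.09, 1.20 and 1.40 in luminal sums. Kif11 stood at 2.43, 0.77, 0.77 and 1.02 in basal and 1.78, 0.77, 0.69 and 1.30 in luminal sums. Their log2 changes were 0.82 ± 0.46 and 0.02 ± 0.44. Apart from plate 1 library 2 their levels ran from 0.97 to 1.79 (Cenpf) and from 0.69 to 1.78 (Kif11).

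Top2a had the lowest adjusted p of the members and was singled out after its values were seen. It stood at 3.71, 0, 0.48 and 0.11 of 10000 in basal and 0.10, 0.05, 0.06 and 0.05 in luminal sums, 58 against 4 transcripts. Its change was 3.55 ± 1.14 (edgeR adjusted p 0.0527), and 23 of the 58 basal transcripts were in the cell of plate 1 library 2. Mad2l1, of the spindle checkpoint, had 2.77 ± 0.93 (adjusted p 0.0623; 47 against 4 transcripts) and Ccnb1 2.82 ± 1.15 (0.134; 44 against 6). Aurka, a mitotic kinase, lay furthest the other way at -2.10 ± 1.09, on 3 against 9 transcripts.

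Within the luminal layer, hormone-sensing and secretory cells were compared in the 3 libraries that held at least 3 cells of both, with the library as a block. Mki67 was the only member that passed the edgeR test, higher in hormone-sensing cells. The test called 285 of 7437 genes (3.83%, with 1.57% higher in hormone-sensing cells) and 1 of 31 members. In plate 1 library 3 the hormone-sensing cells held 1 Mki67 transcript, in plate 2 library 1 they held 3 and in plate 2 library 3 they held 34, whereas the secretory cells of these libraries held 0. Of these 38 transcripts, 31 were in 1 cell. With 0 secretory transcripts, Mki67 met the filter through the hormone-sensing cells alone. It could therefore be called in that direction only, and the sign of its change is no separate result. Scaled to depth, Mki67 was at least 7.71-fold higher in hormone-sensing cells, with a floor of 3 transcripts over the secretory sums. This bound rests largely on the cell with 31 transcripts. The edgeR adjusted p was 0.00534, but DESeq2 gave 0.301, edgeR gave 0.145 once plate 1 library 3 was left out, and the gene fell below the filter once plate 2 library 3 was. Secretory cells of plate 1 library 1, which had too few hormone-sensing cells to enter, held 3 Mki67 transcripts.

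Other mitotic genes lay the same way without passing. Fitted changes were above 0 for 25 of 31 members, with a median of 1.37 beside 0.25 over all genes, and 9 members, all with a change above 0, had an unadjusted p under 0.05, beside 12.1% of all genes in either direction and 6.76% higher. Of the 26 G2/M genes only 14 passed the filter, some through the hormone-sensing side alone, so the sign of the changes is in part set by the filter. With filterByExpr 8 members were tested, 5 of them above 0 with a median of 0.50, and 0 had an unadjusted p under 0.05. Cenpa had 31 against 1 transcripts, a log2 change of 4.36 ± 1.54 with an edgeR adjusted p of 0.0947. Cyclin B2 (Ccnb2) had 27 against 2 (adjusted p 0.150), the kinetochore motor Cenpe 17 against 0 (0.106) and the survivin gene Birc5 20 against 1 (0.255). Among S phase genes, Pcna had a change of -0.13 ± 0.69 and Mcm6 one of -0.01 ± 0.87, while Tk1, a thymidine kinase, had 10 against 0 transcripts (edgeR adjusted p 0.246). The chromatin and growth genes had changes of 0.40 (Stmn1) to 1.54 (Hmgb2), each with an adjusted p of at least 0.394. Hormone-sensing cells were deeper than secretory cells, and in plate 2 library 1 the secretory sum rested on 3 cells and 12378 transcripts. The part of depth in these differences was not tested.

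**Figure D5:**
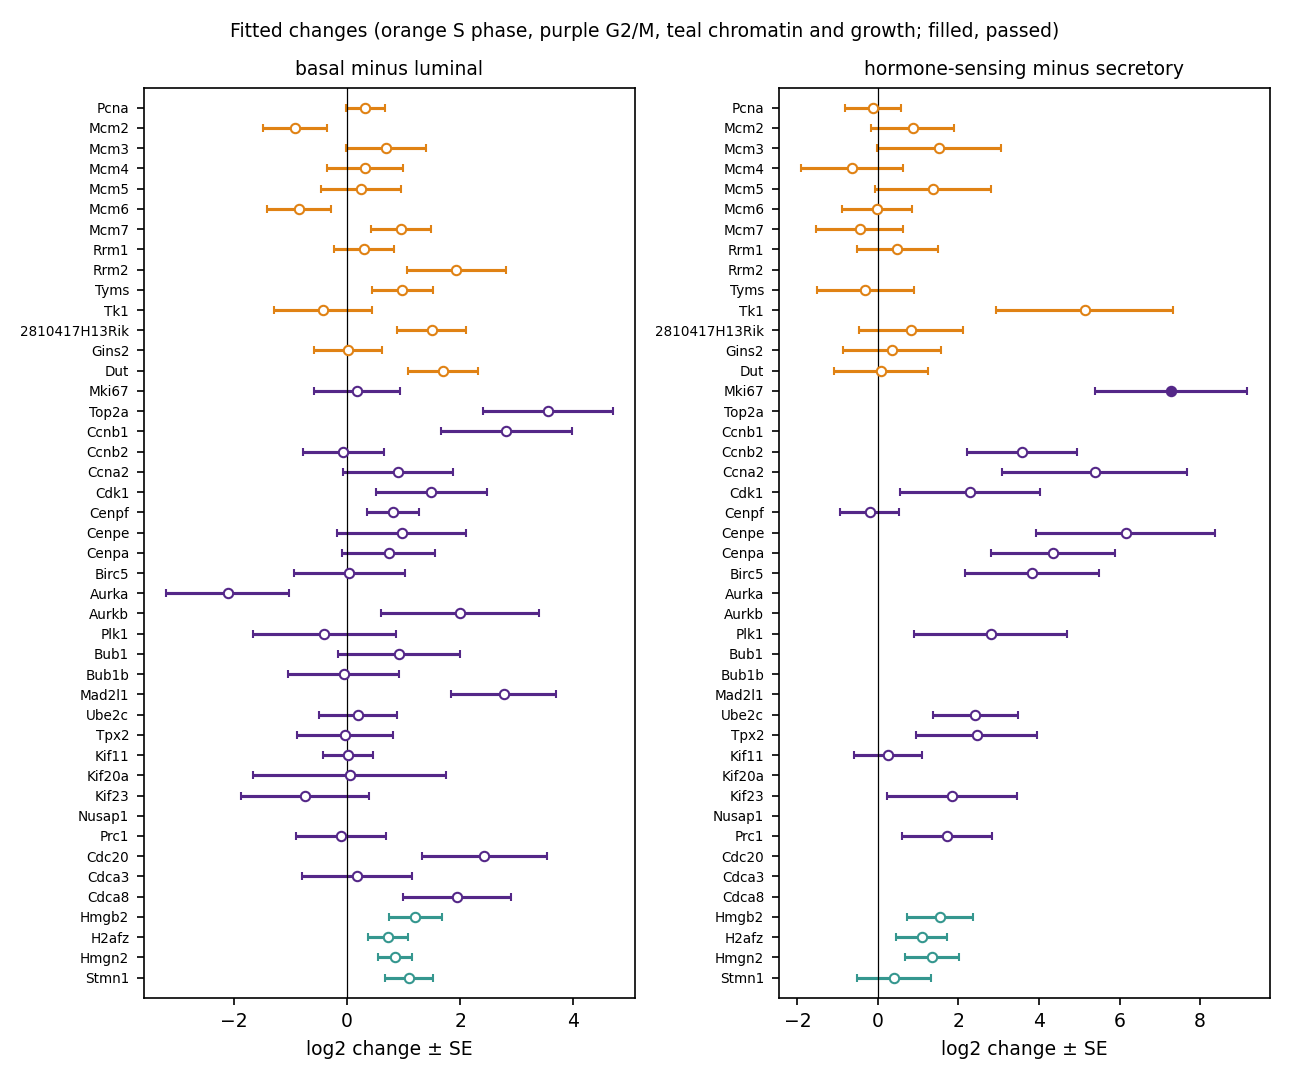
Points give the fitted log2 change of each member with its SE (x axes), basal minus luminal at left and hormone-sensing minus secretory at right, orange for S phase, purple for G2/M and teal for chromatin and growth genes. The only filled point, past the adjusted threshold, is Mki67 at right, and a name with no point was below the filter of 10 transcripts.

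Few genes that govern entry into the cycle passed the test between the layers, a share near that over all genes. Further lists of related genes were read from the same fits, covering G1 cyclins and E2F/pocket proteins, inhibitors, other replication genes and other mitosis genes. In basal against luminal cells, the first list had 1 gene higher and 1 lower of 16 tested, beside 6.07% higher and 5.29% lower over all genes. Cyclin D2 (Ccnd2), which drives G1 kinases, was higher in basal cells, with 1031 transcripts against 6. It stood at 6.42, 12.5, 9.25 and 8.90 of 10000 in basal and 0.40, 0, 0.06 and 0.05 in luminal sums, with no overlap. The depth-scaled ratio was 98.0 (95% counting interval 44.9 to 268), and the edgeR log2 change 6.45 ± 0.58 (adjusted p 1.1e-06). Cyclin D1 (Ccnd1) was spread over both layers, 443 against 369 transcripts, with a change of -0.24 ± 0.37 (adjusted p 0.786). The retinoblastoma gene Rb1, a brake on E2F, was lower in basal cells, 23 against 64 transcripts, a change of -2.18 ± 0.69. Its adjusted p of 0.0498 rose above the threshold in 7 of 8 fits that left out 1 library, to at most 0.209.

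Of 13 inhibitor and arrest genes, 1 passed, a share near the 6.07% called higher over all genes. Cdkn1c, the inhibitor p57, was higher in basal cells, with 88 transcripts against 0. With 0 luminal transcripts, Cdkn1c met the filter through the basal cells alone and could be called in that direction only. It stood at 0.43, 1.16, 0.80 and 0.74 of 10000 in basal sums, at least 16.7-fold higher with a floor of 3 transcripts over the luminal sums (edgeR adjusted p 0.000356). On plate 1 alone its adjusted p was 0.121. Of 34 other replication genes tested, 1 passed, a share below that over all genes. Uhrf1, which carries DNA methylation through replication, was higher in basal cells at 0.43, 0.48, 0.63 and 0.31 against 0, 0, 0 and 0.10 in luminal sums. Its 56 against 2 transcripts gave a ratio of 15.97 (95% counting interval 4.22 to 135.1), with an edgeR adjusted p of 0.00975 that rose to 0.0765 without plate 2 library 2. Of 32 other mitosis genes, edgeR called 0, and 1 had an unadjusted p under 0.05. The most abundant were Arl6ip1 at -0.45 ± 0.35 and Spc24, a kinetochore subunit, at -0.20 ± 0.33.

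Between the luminal classes, the first list gave 2 calls of 10 tested, both lower in hormone-sensing cells, beside 2.26% lower over all genes. Rb1 had 3 against 54 transcripts, a ratio of 29.6 in favour of secretory cells (95% counting interval 9.59 to 147.8) and an edgeR log2 change of -4.33 ± 0.99 (adjusted p 0.000757). It met the filter of 10 through the secretory cells alone. By library, 0, 0 and 3 hormone-sensing transcripts stood against 25, 1 and 28 secretory ones, and the adjusted p was 0.9995 with plate 1 library 3 left out and 0.0734 with plate 2 library 3 left out. E2f5, a repressive E2F, had 0 against 10 transcripts, at least 5.47-fold higher in secretory cells with the floor of 3 (edgeR adjusted p 0.0189). Its secretory transcripts were 4, 4 and 2 by library, so it met the filter of 10 exactly and through the secretory cells alone. It fell below the filter with any of the 3 libraries left out. Among inhibitors, 0 of 9 passed, with Btg2 at 1.23 ± 0.68 and Btg1 at 0.58 ± 0.65. Among other replication genes 0 of 19 passed, with Dnmt1 at 0.06 ± 0.80 and Slbp at 0.60 ± 0.92. Among other mitosis genes 0 of 21 passed, with Arl6ip1 at 1.75 ± 0.71 (edgeR adjusted p 0.193) and Spc24 at -0.41 ± 0.63. At an unadjusted p under 0.05 the counts for these 3 lists were 2 of 9, 0 of 19 and 7 of 21, beside 12.1% of all genes.

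Plates are the only grouping in the labels. EdgeR on sums over all kept cells called 0 of 10864 genes (0%), and 0 of 43 members. At an unadjusted p under 0.05 there were 2 members, Tpx2 and Mki67, both higher on plate 2, beside 4.28% of all genes in either direction and 1.97% higher. DESeq2 called 3 genes and 0 members. With library numbers as a block, edgeR called 52 genes and 0 members, and 6 members had an unadjusted p under 0.05. The median member change, plate 2 minus plate 1, was 0.34 beside 0.13 over all genes, and 0.67 beside 0.16 with the block. Without plate 1 library 2 the median was 1.47 beside 0.12, and 18 of 41 members had an unadjusted p under 0.05, all higher on plate 2, with 0 past the adjusted threshold.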

How the data were processed

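The deposited table holds expected counts, estimated transcript molecules per gene and well, made by the authors from SORT-seq libraries read as pairs of 75 bp, per the labels. The submitters' processing notes list BWA 0.6.2-r126 and mm10 with no role. For filters and counting settings, the sources used here give nothing. Values were rounded to whole transcripts, and 81 spike-in lines stayed out of all totals. No doublet caller was run.

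Transcripts were summed per library and class (at least 5 cells, or 3 for the paired luminal classes) and genes with 10 or more transcripts were tested with edgeR 4.0.16 (TMM, quasi-likelihood, adjusted p under 0.05) in R 4.3.3, after a check on simulated data. DESeq2 1.42.0, other filters, no TMM, each plate alone, leaving out cells led by other types' markers and each library in turn were alternatives. Shares used 1 seeded draw of 1500 transcripts per cell, with exact binomial intervals. Ratios used a pseudocount of 0.5. Python 3.11.15 was used.

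Members and lists were chosen with earlier results of these data known, so no p-value is given for sums, shares or ratios over members, and the planned permutation tests of these are left out. Members named with values per library are the 5 with most transcripts in each group and any that passed, plus Top2a. Other lists give up to 4 passing genes, or else the 2 most abundant. Ccnd1 is given beside Ccnd2.

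Library numbers were tested as pairs across plates. Deviations of same-numbered libraries from plate means correlated at 0.16, 0.24, 0.34 and 0.38. Differently numbered libraries of like class content correlated as highly (0.29, 0.22, 0.35 and 0.41). Libraries 2 and 4 hold basal cells and libraries 1 and 3 mostly luminal cells on both plates, so these values cannot tell number from class. The block of library numbers is given beside the plate comparison. Well depth ranged from 1505 to 57903 transcripts in kept cells.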

Additional observations from a re-analysis of the deposited data

Results flagged for a closer look

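In 8 groups of 4 libraries, 1 library lay further from the others than Dixon's 95% limit allows, among 42 groups examined. Chance flags about 1 in 20 groups, and the sums contain the single genes, so these are not independent. Plate 1 library 2 was high among basal libraries for all G2/M genes together, at 37.0 of 10000 transcripts, and for Cenpf (6.14), Kif11 (2.43), Ube2c (3.43) and Top2a (3.71). In this library 1 cell held 222 of the 259 G2/M transcripts, and markers of other cell types led in 9 of 12 cells. Their part in these values was not tested. Plate 2 library 3 was high among luminal libraries for the G2/M genes, at 16.4, and for Mki67, at 1.77, and 1 cell held 234 of its 315 G2/M transcripts. Plate 1 library 4 was low among basal libraries for the chromatin and growth genes, at 9.95.

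Wells below the limit for cells also held transcripts of the S phase and G2/M genes, at 17.7 of 10000 over 579 wells. By library this ranged from 2.32 in plate 2 library 1 to 41.6 in plate 2 library 2.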

How the results depend on the processing

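Counts of members called were small and moved with the settings. For basal against luminal, 0 by the reported test became 1 with filterByExpr (Hmgn2) or with plate as a covariate (Top2a), 2 with DESeq2 (1077 of 10784 genes), on plate 2 alone (1131 of 10019) or without cells led by other types' markers, 5 of 44 with no filter beyond 1 transcript (1511 of 14386), and 0 to 3 with 1 library left out. Leaving out cells led by other types' markers also removed all of plate 1 library 2, which then had 3 basal cells. Both choices therefore enter each basal against luminal value given without those cells. That fit called Hmgn2 and Stmn1 (1467 of 10581 genes), as did the fit without plate 1 library 2 alone (1438 of 10619 genes). All members called in these fits were higher in basal cells. For hormone-sensing against secretory, 1 became 0 with filterByExpr, DESeq2 or plate 2 alone, 3 without TMM, and 0 to 5 with 1 library left out. Between plates it stayed 0 in each alternative run. With the replicate block of library numbers, 0 members and 52 genes were called between plates, against 0 genes without it. With no replicate block, the luminal classes gave 6 members. That fit also took in the secretory sum of plate 1 library 1. The 2 changes cannot be told apart in any luminal value given here with no replicate block. Between plates the block changed no call of a member.

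Counts over all genes that moved by over 1.5 times were, for basal against luminal, 505 with filterByExpr, 147 on plate 1 alone and 760 without plate 2 library 2, against 1225. For the luminal classes they were 185 with DESeq2, 677 with no replicate block, 62 without plate 1 library 3 (also plate 2 alone), 448 without plate 2 library 1 and 58 without plate 2 library 3, against 285.

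The basal minus luminal cycling share kept its sign in all 20 alternatives. From 13.4 points it moved to 6.26 without Cenpf and Kif11, 30.2 at a limit of 2 transcripts and 12.8 over all draws, and ranged from 8.32 to 24.99 with 1 library left out. The hormone-sensing minus secretory share was -11.1 on plate 1 alone, which is 1 library in 1 draw (21.25% against 4.93% over all draws and 33.3% against 0% with 3000 transcripts drawn), and 1.59 to 46.0 with 1 library left out. The S phase to G2/M log2 ratio, -0.30, turned to 0.15 without cells led by other types' markers, 0.52 on plate 2 alone and up to 0.10 without plate 1 library 2 (0.000707 without plate 1 library 3), in a range of -0.65 to 0.10 with 1 library left out.

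Of 491 single-gene values, 418 kept direction and side of the threshold, 30 changed sign, 22 passed newly and 21 no longer passed. None of the sign changes was in a gene past the threshold of the reported test. For basal minus luminal, log2 changes were -0.27 (Kif11) and -0.69 (Ube2c) without cells led by other types' markers. With 1 library left out they ranged from -0.018 to 0.50 (Pcna), -0.37 to 0.26 (Kif11), -0.76 to 1.42 (Ube2c) and -0.20 to 2.05 (Mki67). Plate 2 alone gave 0.15 (Mcm6), -0.23 (Rrm1), -0.10 (Kif11), -1.17 (Ube2c), -0.18 (Mki67) and -0.069 (Cenpa). For hormone-sensing minus secretory, Mcm6 was at 0.044 with no filter beyond 1 transcript and 0.024 without TMM, and Pcna at 0.20 with DESeq2. Dut was at -0.61 and Cenpf at 0.60 on plate 2 alone, and with no replicate block Kif11 was at -0.45 and Stmn1 at -0.42. With 1 library left out the ranges were -2.14 to 2.82 (Mcm6), -0.81 to 1.12 (Pcna), -0.61 to 0.35 (Dut), -0.87 to 0.60 (Cenpf) and -0.11 to 0.79 (Kif11). The cause was not tested for any of these.

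The fit of the luminal classes on plate 1 alone was not run, because 1 pair leaves no spread. With 3 to 9 cells per luminal sum and most G2/M genes in under 20 cells, the depth limits what can be told for single genes, and single cells set several values.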
